A study of Mus musculus with 18 samples.

Results

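The genes examined here encode 6 neuropeptide precursors of pain- and itch-sensing neurons (Calca, Calcb, Tac1, Adcyap1, Sst and Nppb) and 3 receptor components for CGRP and substance P (Calcrl, Ramp1 and Tacr1). They were chosen by name, and all 9 were found, each once, among the 36737 genes measured by bulk RNA-seq in mouse dorsal root ganglia (DRG). L3–L5 DRG came from adult CD1 mice, an outbred strain, in 3 groups of 6 mice with 3 males and 3 females each and 1 library per mouse. Sham mice had sham surgery, Fracture mice had a tibial fracture with vehicle, and Fracture+PDX mice had the fracture with protectin DX (PDX), a specialized proresolving lipid mediator. The fracture groups were sampled on day 3. The sham day and the PDX dose for these mice are not given in the sources used here.

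DRG hold the cell bodies of sensory neurons together with satellite glia, Schwann cells, vessels and macrophages. Peptidergic nociceptors make neuropeptides as precursors, cleave and amidate them in dense-core vesicles, and release them in the spinal cord and from their endings in skin, muscle and bone. CGRP dilates vessels through a receptor built from Calcrl and Ramp1, and substance P acts on the receptor encoded by Tacr1. Peptides made in the ganglion therefore often meet their receptors in other tissues.

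Libraries held 63235040 to 82824942 counts. Values are library-scaled counts (CPM) for comparisons of 1 gene between mice, and FPKM, which divides by transcript length, for comparisons between genes. Summed CPM of 10 neuron genes was 7626 to 8158 in sham mice, 8552 to 8816 after fracture and 8549 to 8924 after fracture with PDX, so the ganglia carried neuronal RNA throughout and both fracture groups lay above sham. Summed CPM of 6 central nervous system genes was 4.23 in fracture male 2 and at most 1.63 in the other 17 libraries. Summed CPM of 7 placenta genes, which do not belong in DRG, was 172 to 561 in sham mice (median 357), 27.8 to 268 after fracture (median 94.9) and 26.6 to 136 with PDX (median 79.8), so sham lay higher as a group and did not overlap PDX. The highest value was in sham female 2. Summed CPM of 8 skeletal muscle genes ran from 12.4 to 1111, with medians of 76.6 in sham mice, 336 after fracture and 51.0 with PDX. The ranges of the groups overlapped broadly.

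Calca, the gene for calcitonin and alpha-CGRP, was the most abundant of the 9 transcripts by far. Its level averaged 459 ± 26.7 FPKM in sham mice (SD, n = 6), rank 54 of all genes in the table, and ranged from 391 to 495 FPKM over all 18 libraries. Calcb, which encodes beta-CGRP, followed at 64.4 ± 9.83 FPKM in sham mice. Tac1, the precursor of substance P and neurokinin A, stood at 50.8 ± 9.80 FPKM. The ranges of Calcb and Tac1 overlapped across libraries, although Calcb was the higher of the 2 within each of the 18 libraries.

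Adcyap1, the precursor of PACAP, was next at 16.4 ± 3.40 FPKM in sham mice. Nppb, which encodes natriuretic peptide B, and Sst, the somatostatin gene, both mark an itch-sensing neuron class and stood at 6.48 ± 1.25 and 6.46 ± 1.28 FPKM. Nppb and Sst could not be ordered in sham mice, and Nppb was the higher of the 2 in 15 of 18 libraries. The receptor components were far lower. Calcrl measured 1.44 ± 0.142 FPKM, Ramp1 1.28 ± 0.279 FPKM and Tacr1 0.05 ± 0.021 FPKM in sham mice. Ranges of Calcrl and Ramp1 overlapped, with Calcrl higher in 15 of 18 libraries. Tacr1 rested on only 4 to 51 counts per library, so differences of its level were barely resolvable at this depth.

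**Figure D1:**
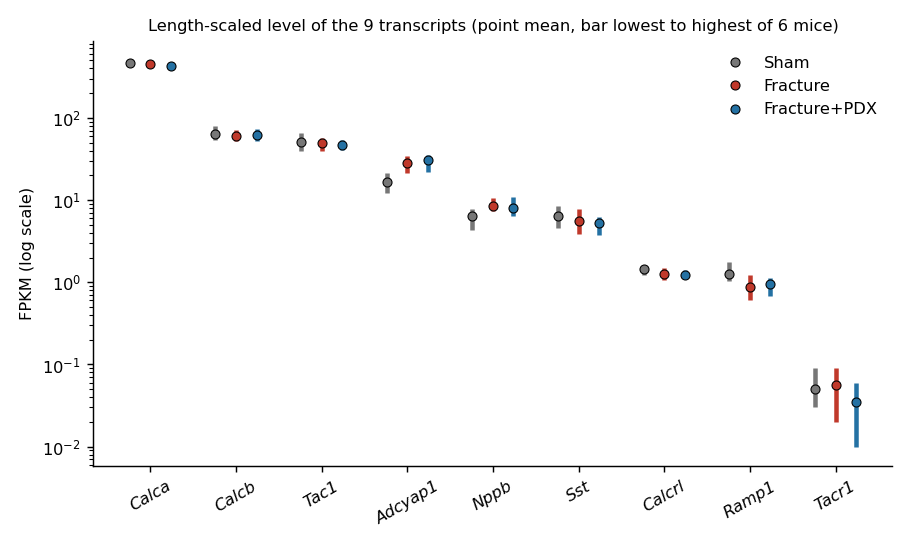
Level of the 9 transcripts in FPKM (log axis) in each group, with the point at the mean and the bar from the lowest to the highest of 6 mice. Calca stands above every other transcript, Adcyap1 is higher in both fracture groups than in sham, and Tacr1 lies below 0.1 FPKM throughout.

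The 6 peptide genes summed to 604 ± 44.8 FPKM in sham mice, 600 ± 33.0 FPKM after fracture and 581 ± 34.0 FPKM with PDX. Calca alone made up 76.1 ± 1.64% of that sum in sham mice, 74.7 ± 0.857% after fracture and 73.7 ± 1.81% after fracture with PDX. The share of Adcyap1 was 2.69 ± 0.391% in sham mice, 4.66 ± 0.697% after fracture and 5.28 ± 0.995% with PDX. The lowest share in either fracture group, 3.49%, was above the highest in sham mice, 3.22%.

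The first question was which of these transcripts differed between fracture and sham ganglia on day 3. Adcyap1 rose, and it was the only 1 of the 9 called at an adjusted p under 0.05. The background was 2.92% of the 20659 genes tested by edgeR's quasi-likelihood test, with 225 genes higher and 378 lower. The median log2 fold change was -0.04 over the 9 members and 0.0021 over all genes tested.

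Adcyap1 read 88.5, 56.4 and 50.7 CPM in sham males 1 to 3 and 76.9, 66.8 and 68.3 CPM in sham females 1 to 3. In fracture mice it read 90.2, 125 and 147 CPM in the males and 108, 119 and 113 CPM in the females. Every fracture mouse was above every sham mouse, with fracture male 1 and sham male 1 close to each other. The fitted log2 fold change was 0.78 ± 0.15 (SE), or 1.72-fold, with an adjusted p of 0.0283 by edgeR's quasi-likelihood test. An exact two-sided permutation test on log2 CPM gave p = 0.00216 (n = 6 and 6), the smallest that groups of this size allow. Relative to the mean of the 10 neuron genes the difference was 0.67 on the log2 scale (exact permutation p = 0.00433). The adjusted p by edgeR's quasi-likelihood test moved above 0.05 when any 1 of 6 libraries was left out (sham male 2, sham male 3, sham female 2, fracture male 2, fracture male 3 or fracture female 2), at 0.0523 to 0.0697, while the log2 fold change over all 12 omissions stayed between 0.70 and 0.90. It was 0.0526 by the same test without a filter on low counts. In bulk ganglia, more RNA per neuron and a greater share of cells that make the transcript cannot be told apart.

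The Adcyap1 gene (ENSMUSG00000024256) lies on the plus strand of chromosome 17 from 93199017 to 93206537 in GRCm38 and overlaps no other annotated gene. Its promoter is printed because this gene changed. PACAP and somatostatin genes are textbook targets of cAMP signaling through CREB-family factors, so the 250 bases before the RefSeq start site of each gene were searched on both strands for the cAMP response element TGACGTCA, its core TGACG, which lies within it, and the AP-1 site TGANTCA. Promoters were matched for 8 of the 9 genes, not for Calcb. Adcyap1 had 2 start sites in the RefSeq table, and the one that coincides with the start of the gene in the deposited table was used. For Sst, Tac1, Nppb, Calcrl and Tacr1 the RefSeq start lies inside the gene of the deposited table, by 114, 182, 112, 145 and 141 bases. Their windows therefore partly overlap the gene as placed there, and the stretches shown for Sst and Tac1 lie within it. Capitals mark the matches, on either strand, in these sequences from RefSeq (GRCm38.p6). Adcyap1 is chr17:93198767-93199016 on the plus strand and Calca, the most abundant member, is chr7:114636358-114636607 on the minus strand. Shown as 30 bases are Sst, chr16:23890874-23890903 on the minus strand, and Tac1, chr6:7555005-7555034 on the plus strand, around the nearer to the start of its 2 core matches.
Adcyap1: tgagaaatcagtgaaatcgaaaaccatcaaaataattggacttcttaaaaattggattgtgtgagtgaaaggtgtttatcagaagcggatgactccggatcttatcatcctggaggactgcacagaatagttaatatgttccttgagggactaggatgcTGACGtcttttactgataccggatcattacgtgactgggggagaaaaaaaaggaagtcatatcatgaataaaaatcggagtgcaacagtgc
Calca: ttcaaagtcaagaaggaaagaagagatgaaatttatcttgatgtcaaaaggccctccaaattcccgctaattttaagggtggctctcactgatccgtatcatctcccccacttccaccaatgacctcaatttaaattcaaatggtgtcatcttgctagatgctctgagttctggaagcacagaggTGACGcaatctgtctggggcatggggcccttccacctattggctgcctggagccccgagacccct
Sst: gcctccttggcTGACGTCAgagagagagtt
Tac1: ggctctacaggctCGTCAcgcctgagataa
The full element stood in 1 of 8 member promoters, that of Sst, 48 bases before its start, against 1.55% of 32851 mouse promoters. The core TGACG stood in 5 of 8 (Adcyap1, Calca, Sst, Tac1 and Tacr1), against 17.8% of promoters. In Adcyap1 it began 91 bases before the start and in Calca 65 bases before it. In Tac1 the matches began at positions -197 and -43 from the start, and the former is not printed. No member promoter held the AP-1 site, which 6.75% of promoters held. These matches are letters in a window and were not measured as binding.

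**Figure D2:**
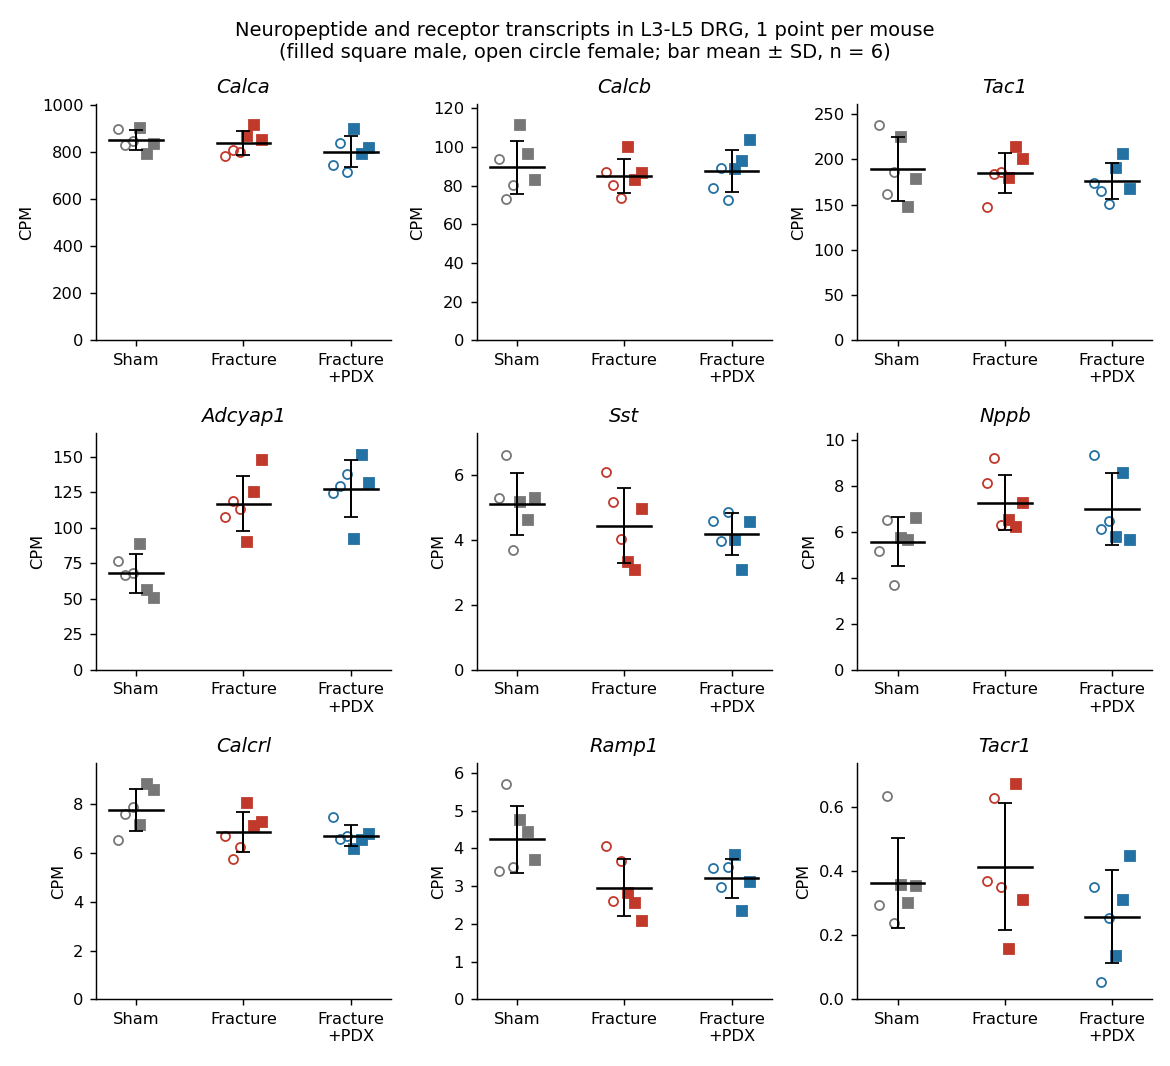
CPM of each transcript in every mouse by group, with filled squares for males, open circles for females and bars for mean ± SD (n = 6). Adcyap1 is the only panel in which the sham points, at most 88.5 CPM, lie below all points of both fracture groups, at least 90.2 CPM.

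Nppb and Sst, which the same itch neurons make, lay on opposite sides of sham after fracture, although neither passed the test. Nppb ranged from 3.71 to 6.60 CPM in sham mice (median 5.70) and from 6.24 to 9.21 CPM after fracture (median 6.88). Its log2 fold change was 0.38 ± 0.15 with an adjusted p of 0.172 by edgeR's quasi-likelihood test, and 3 of 6 fracture mice were above every sham mouse. An exact permutation test on log2 CPM of Nppb gave p = 0.0216 (not adjusted). Sst ranged from 3.70 to 6.63 CPM in sham mice (median 5.23) and from 3.09 to 6.09 CPM after fracture (median 4.49). Its log2 fold change was -0.22 ± 0.17 with an adjusted p of 0.544 by the edgeR test. By sex (n = 3), mean Sst in sham and fracture mice was 5.03 and 3.79 CPM in males and 5.21 and 5.10 CPM in females. Mean Nppb was 6.00 and 6.66 CPM in males and 5.14 and 7.89 CPM in females. The interaction of sex with fracture was not called for Sst or Nppb (adjusted p = 0.861 and 0.759, edgeR).

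Taken within each mouse, the ratio of Sst to Nppb on the FPKM scale separated sham from fracture mice. It was 0.868 to 1.11 in sham mice (median 1.03) and 0.537 to 0.808 after fracture (median 0.651). With PDX it was 0.390 to 0.876 (median 0.725), and the highest of those values lay within the sham range. This ratio was 1 of 5 between 2 genes that were computed after the values had been seen, so it is given without a test.

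**Figure D3:**
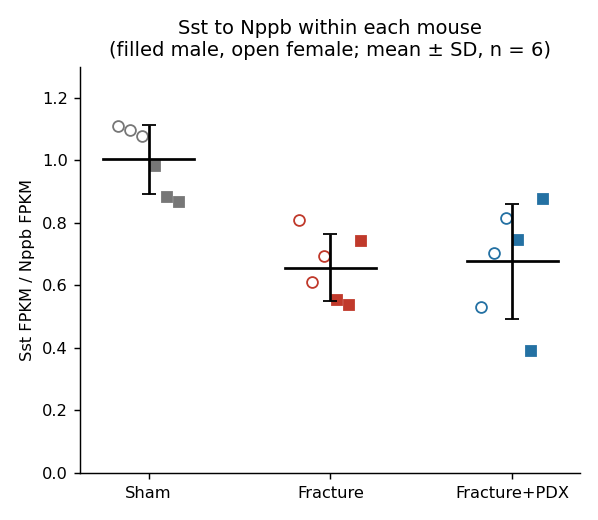
Ratio of Sst to Nppb FPKM within each mouse by group, with filled squares for males, open circles for females and bars for mean ± SD (n = 6). Sham mice sit between 0.868 and 1.11, above all fracture mice, whose highest ratio is 0.808.

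All 5 other genes on the list for this itch-sensing class (Osmr, Il31ra, Nts, Cysltr2 and Htr1f) had positive log2 fold changes in fracture against sham, with a median of 0.40, and 0 of 5 were called. The log2 fold changes were also positive for 10 of 10 neuron genes, 8 of 8 nociceptor genes, 6 of 6 large neuron genes and 5 of 5 nonpeptidergic neuron genes, with medians from 0.08 to 0.17. Il31ra, a subunit of the interleukin-31 receptor, was at 0.49 ± 0.16 (adjusted p = 0.136, edgeR). Nts, which encodes neurotensin, was at 1.44 ± 0.38 (adjusted p = 0.0741, edgeR) and rose in fracture plus PDX against sham mice, at 2.09 ± 0.44 (adjusted p = 0.0290, edgeR). Nts was the only 1 of the 5 called in that comparison, where all 5 were positive with a median of 0.12. In fracture plus PDX against fracture mice 1 of 5 was positive, with a median of -0.16, and 0 were called.

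The CGRP and substance P precursors showed no called change after fracture, and Calca was measured tightly enough to bound it. Calca ranged from 790 to 902 CPM in sham mice (median 840) and from 781 to 913 CPM after fracture (median 830). The log2 fold change was -0.02 ± 0.04, with a 95% interval of -0.11 to 0.07. Calcb ranged from 72.9 to 111 CPM in sham mice (median 88.4) and from 73.5 to 99.8 CPM after fracture (median 84.9). Tac1 ranged from 148 to 238 CPM in sham mice (median 183) and from 148 to 213 CPM after fracture (median 185). In all 3 genes the groups overlapped broadly with the sexes pooled, although the highest sham values of Calcb and Tac1 lay above the fracture range. Within females Calca read 898, 830 and 846 CPM in sham mice and 781, 809 and 799 CPM after fracture, so these did not overlap, whereas the males averaged 842 ± 56.1 CPM in sham mice and 877 ± 31.9 CPM after fracture and overlapped. The interaction of sex with fracture for Calca was -0.17 ± 0.07 on the log2 scale and did not pass the test (unadjusted p = 0.0337, adjusted p = 0.652, edgeR). Calcb was at -0.07 (95% interval -0.25 to 0.10) and Tac1 at -0.04 (95% interval -0.33 to 0.25), and the sign for Tac1 turned when sham male 1, sham female 1 or fracture female 1 was left out (0.019, 0.0468 and 0.0223). Relative to the neuron genes, which lay higher after fracture, Calca was lower by a log2 difference of -0.15 (exact permutation p = 0.0152). On this scale 27 such tests were made, and their p-values are not adjusted. Those for Calcb (-0.19, exact permutation p = 0.113), Tac1 (-0.15, exact permutation p = 0.262), Sst (-0.35, exact permutation p = 0.110), Nppb (0.27, exact permutation p = 0.108) and Tacr1 (-0.02, exact permutation p = 0.957) missed 0.05 after fracture.

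Calca (ENSMUSG00000030669) and Calcb (ENSMUSG00000030666) are neighbours on chromosome 7, separated by 82285 bases and transcribed from opposite strands. Their annotated transcripts share 12 overlapping windows of 50 bases, all within a single shared run of 61 bases. These windows are 0.715% of those of Calca and 0.952% of those of Calcb. Ramp1 (ENSMUSG00000034353) lies at chr1:91179822-91206790, Calcrl (ENSMUSG00000059588) at chr2:84330626-84425411, Nppb (ENSMUSG00000029019) at chr4:147985788-147987205, Tac1 (ENSMUSG00000061762) at chr6:7554879-7562977, Tacr1 (ENSMUSG00000030043) at chr6:82402334-82560099 and Sst (ENSMUSG00000004366) at chr16:23889573-23890958 (GRCm38), and none of the 9 overlaps another annotated gene. Reads from the shared run of Calca and Calcb could have been assigned to either gene, and the counting rule of the authors is not given in the sources used here. The ratio of Calca to Calcb on the FPKM scale was 7.24 ± 0.979 in sham mice, 7.43 ± 0.713 after fracture and 6.91 ± 0.633 with PDX.

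Of the receptor components, Ramp1, the accessory protein that makes Calcrl a CGRP receptor, lay lowest after fracture relative to sham. Ramp1 read 4.75, 4.43 and 3.70 CPM in sham males and 3.40, 5.70 and 3.50 CPM in sham females. After fracture it read 2.82, 2.55 and 2.07 CPM in the males and 4.06, 2.61 and 3.68 CPM in the females. The 3 fracture males and fracture female 2 were below every sham mouse, and the other fracture females lay within the sham range. The log2 fold change was -0.54 ± 0.17, with an adjusted p of 0.119 by edgeR's quasi-likelihood test. It was called by 1 of 8 other settings, DESeq2 (adjusted p = 0.0404), and was -0.27 by limma on log2(FPKM + 1), a scale that understates changes of low transcripts (adjusted p = 0.152). An exact permutation test on log2 CPM gave p = 0.0195 (n = 6 and 6, not adjusted), and relative to the neuron genes the difference was -0.65 (exact permutation p = 0.0195).

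Calcrl, the receptor's membrane-spanning subunit, ranged from 6.54 to 8.81 CPM in sham mice (median 7.74) and from 5.77 to 8.07 CPM after fracture (median 6.89). Its log2 fold change was -0.18 ± 0.08 with an adjusted p of 0.270 by the edgeR test, or -0.11 by limma on log2(FPKM + 1). An exact permutation test on log2 CPM of Calcrl gave p = 0.0952 (not adjusted). Relative to the neuron genes, which themselves lay higher after fracture, the Calcrl difference was -0.30 (exact permutation p = 0.0195, not adjusted). Calcrl is also a gene of vessels, and summed CPM of 7 endothelial genes was 119 to 163 in sham and 103 to 127 in fracture mice, with Cdh5, a junction cadherin, and Flt1, a VEGF receptor, both called lower (log2 fold changes -0.73 and -0.71, edgeR adjusted p = 0.0117 and 0.0171). The other 5 endothelial genes were not called, with Kdr at -0.22, Tek at -0.24, Pecam1 at -0.07, Emcn at 0.03 and Cldn5 at 0.07. With PDX Cdh5 and Flt1 again were the 2 of 7 called lower than in sham mice (log2 fold changes -0.74 and -0.73). Ramp1 was highest in sham female 2, the library with the most placenta RNA, as was Sst. Without that library the log2 fold change after fracture was -0.45 for Ramp1 (adjusted p = 0.246, edgeR) and -0.15 for Sst (adjusted p = 0.747, edgeR). The part of these other cells in the receptor values was not tested.

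Ramp2, which turns Calcrl into an adrenomedullin receptor and was singled out after its values were seen, measured 6.81 ± 1.61 FPKM in sham and 8.85 ± 2.28 FPKM in fracture mice, above Ramp1 in both. The ratio of Ramp2 to Ramp1 was 3.81 to 6.72 in sham and 7.55 to 14.3 in fracture mice, and 4.68 to 13.1 with PDX. The fracture and sham ranges of this ratio, also chosen after the values had been seen and given without a test, did not overlap. Ramp2 itself did not pass the test (log2 fold change 0.37 ± 0.17, adjusted p = 0.286, edgeR).

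Tacr1 read 0.239 to 0.633 CPM in sham mice, 0.155 to 0.669 CPM after fracture and 0.0544 to 0.447 CPM with PDX. Its 95% interval for fracture against sham, -0.61 to 0.97 on the log2 scale, covered changes in both directions. Among the other receptors and partners, 15 of 17 could be tested and 0 were called after fracture. The most abundant were Npr2, the receptor for C-type natriuretic peptide, at 148 ± 2.93 CPM in sham mice, and Crcp, an accessory protein of CGRP receptor signaling, at 38.3 ± 1.32 CPM. Crcp rose in fracture plus PDX against sham mice, by 0.14 ± 0.03 on the log2 scale (adjusted p = 0.0325 by edgeR). Adcyap1r1, the PACAP receptor, was added as the partner of Adcyap1 after values had been seen. It averaged 0.702 ± 0.0725 FPKM in sham mice, 0.578 ± 0.196 FPKM after fracture and 0.413 ± 0.183 FPKM with PDX, and it was not called in any of these comparisons.

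**Figure D4:**
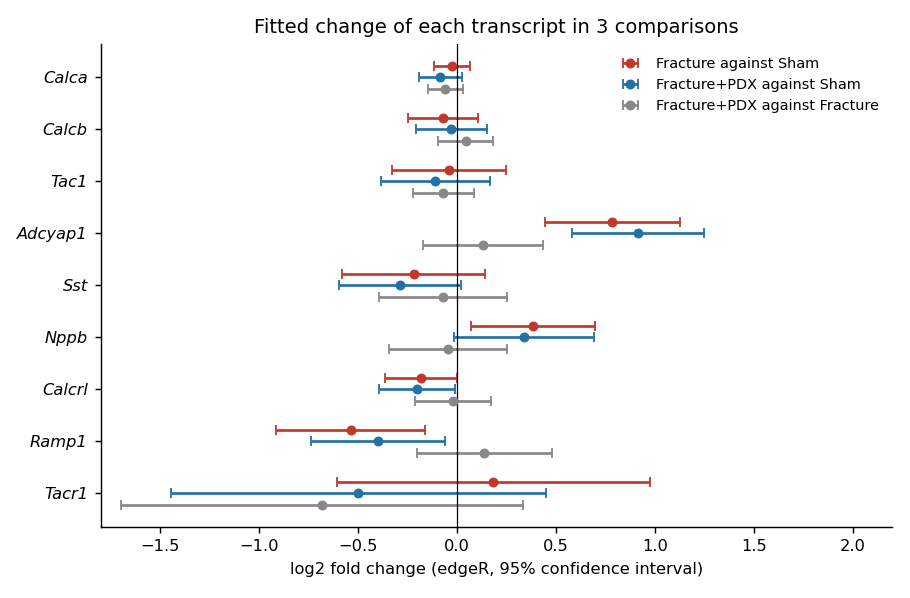
Fitted log2 fold change of each transcript with its 95% confidence interval (edgeR, 12 libraries per comparison) for 3 comparisons, named by group in the key. Intervals are not adjusted for the number of genes. Those of Adcyap1 begin at 0.44 and 0.58 in the comparisons with sham, and all 9 intervals for PDX against fracture include 0.

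The second question was whether PDX moved these transcripts in fractured mice. None of the 9 was called in fracture plus PDX against fracture, where 0% of 20562 genes were called by edgeR, 1113 had an unadjusted p under 0.05 and DESeq2 called 21. Adcyap1 was 91.8 to 151 CPM with PDX (median 130) and 90.2 to 147 CPM without it (median 116), so the groups overlapped almost fully. The log2 fold change was 0.13 ± 0.14, with a 95% interval of -0.17 to 0.43. Calca was at -0.06 ± 0.04 (95% interval -0.15 to 0.03), Calcb at 0.04 ± 0.06 and Tac1 at -0.07 ± 0.07. Sst was 3.08 to 4.88 CPM with PDX (median 4.28) and Nppb 5.64 to 9.36 CPM (median 6.31). For Nppb 3 of 6 PDX mice lay below every fracture mouse and 1 above, and the groups overlapped for both genes. Calcrl was 6.17 to 7.48 CPM (median 6.64) and Ramp1 2.35 to 3.82 CPM (median 3.30). Calca was 713 to 897 CPM (median 804), Calcb 72.4 to 103 CPM (median 88.7) and Tac1 151 to 206 CPM (median 170). The intervals for Sst (-0.39 to 0.25), Nppb (-0.34 to 0.25), Calcrl (-0.21 to 0.17) and Ramp1 (-0.20 to 0.48) are wider than those of the CGRP genes. Tacr1 had the estimate farthest from 0 of the 9, at -0.68 (95% interval -1.70 to 0.33, adjusted p = 0.935, edgeR), on few counts.

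The mice given PDX were also compared with the same 6 sham libraries, so both comparisons with sham share their controls. Here 4.5% of 20574 genes were called, 447 higher and 478 lower, and Adcyap1 was again the only called member. It was 91.8 to 151 CPM against 50.7 to 88.5 CPM in sham, with a log2 fold change of 0.92 ± 0.15, or 1.89-fold, and an adjusted p of 0.00941 by edgeR's quasi-likelihood test. Ramp1 was at -0.40 ± 0.16 (adjusted p = 0.195, edgeR) and Calcrl at -0.20 ± 0.09 (adjusted p = 0.246, edgeR), with -0.21 and -0.12 by limma on log2(FPKM + 1). Sst was at -0.29 ± 0.14 (adjusted p = 0.316) and Nppb at 0.34 ± 0.16 (adjusted p = 0.302). Tacr1 was at -0.50 ± 0.44 (adjusted p = 0.620, edgeR). Calca was at -0.08 ± 0.05 (adjusted p = 0.436, edgeR), and an exact permutation test on its log2 CPM gave p = 0.145. Relative to the neuron genes, which themselves lay above sham, Calca was lower by a log2 difference of -0.23 (exact permutation p = 0.00433, not adjusted over the 27 tests). On the same scale Calcrl was at -0.35 (exact permutation p = 0.00433), Ramp1 at -0.53 (exact permutation p = 0.00866) and Sst at -0.42 (exact permutation p = 0.0281), while Adcyap1 was higher by 0.78 (exact permutation p = 0.00433). Calcb (-0.17, exact permutation p = 0.160), Tac1 (-0.24, exact permutation p = 0.0758), Nppb (0.18, exact permutation p = 0.355) and Tacr1 (-0.74, exact permutation p = 0.126) missed 0.05.

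Males and females were compared with group held constant. Here 0.291% of 21340 genes were called and none of the 9 was among them. Calcb was lower in females in all 3 groups, at 82.2 ± 10.6 against 96.9 ± 14.1 CPM in sham, 80.3 ± 6.85 against 89.9 ± 8.74 CPM after fracture and 80.1 ± 8.41 against 94.9 ± 7.72 CPM with PDX (SD, n = 3). The log2 fold change was -0.21 ± 0.06, with an adjusted p of 0.193 by edgeR and 0.0471 by DESeq2. For fracture by sex 0% of 20659 genes were called by edgeR (1488 at an unadjusted p under 0.05, 62 by DESeq2), and for PDX by sex 0.00486% of 20562, a single gene that is not a member. The member with the lowest unadjusted p for PDX by sex was Calcrl, at 0.36 ± 0.15 on the log2 scale (unadjusted p = 0.0355, adjusted p = 0.998, edgeR). The spread of Adcyap1 within groups lay mainly among males, with SDs of 20.4 CPM in sham mice, 28.9 CPM after fracture and 30.3 CPM with PDX, against 5.47, 5.66 and 6.58 CPM in females. This difference in spread was not tested. Of the listed cell genes, Gfra2, a receptor of nonpeptidergic neurons, was lower in females (-0.26 ± 0.05, adjusted p = 0.0188, edgeR).

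Adcyap1 is known to rise in injured sensory neurons, so its level was set beside 10 axon injury genes. Of these, 6 rose after fracture (median log2 fold change 1.16 over the 10), with Flrt3, an adhesion protein, at 0.91 ± 0.11 (adjusted p = 0.00250), Atf3, a stress-induced transcription factor, at 1.65 ± 0.25 (adjusted p = 0.0141) and Npy, neuropeptide Y, at 2.51 ± 0.55 (adjusted p = 0.0336, all edgeR). In fracture plus PDX against sham mice 7 of 10 rose, with Atf3 at 2.21 ± 0.26, Flrt3 at 1.35 ± 0.21 and Sprr1a, a small proline-rich protein, at 4.93 ± 0.78 (adjusted p = 0.00260, 0.00683 and 0.0100, edgeR). Against fracture 0 of 10 were called, although all 10 log2 fold changes were positive (median 0.50). Summed CPM of the list was 319 to 363 in sham mice, 373 to 674 after fracture and 393 to 748 with PDX. Fracture male 2, at 674, stood apart from the other 5 fracture mice, at 373 to 415, and is the library with the most RNA of central nervous system genes. Across the 12 fractured mice, Adcyap1 and the mean of the injury genes gave Pearson r = 0.496 (permutation p = 0.102) and Spearman rho = 0.448 (permutation p = 0.147). Without the 2 mice farthest from the median of the injury genes r was 0.468, and within groups it was 0.210 after fracture and 0.642 with PDX. This relation was chosen after the values had been seen, and it did not pass the test.

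**Figure D5:**
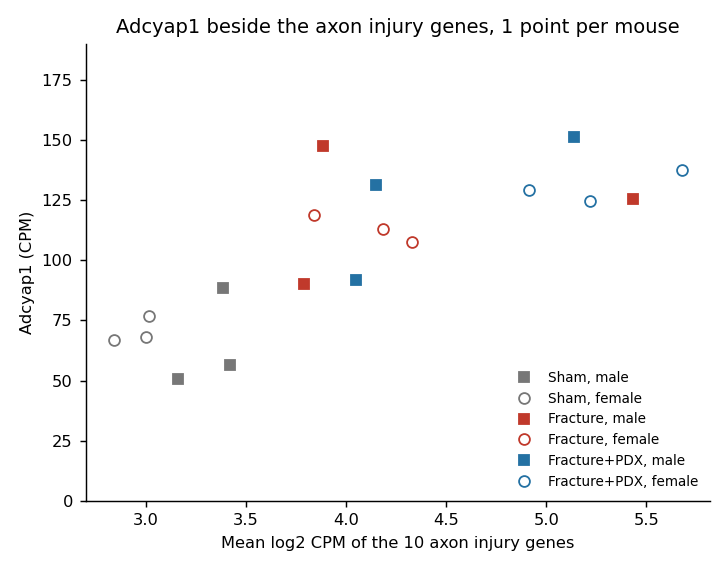
Adcyap1 in CPM against the mean log2 CPM of 10 axon injury genes, 1 point per mouse, with squares for males and circles for females. Sham mice lie at the lower left, at most 88.5 CPM, and the 12 fractured mice, from 90.2 to 151 CPM, scatter to the right with r = 0.496.

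Of 16 genes for peptide processing and dense-core vesicles, the machinery that turns precursors into peptides, 2 rose and none fell after fracture (median log2 fold change 0.09). Of all genes tested, 1.09% rose in that comparison and 2.17% in fracture plus PDX against sham mice. Chgb, the vesicle protein chromogranin B, was at 0.20 ± 0.04 (adjusted p = 0.0304, edgeR) and Cadps, which primes dense-core vesicles for release, at 0.14 ± 0.03 (adjusted p = 0.0396, edgeR). In fracture plus PDX against sham mice 3 of 16 rose, Chgb, Pcsk2, a precursor-cleaving convertase, and Vgf, itself a secreted peptide precursor, at 0.68 ± 0.12 (adjusted p = 0.0122, edgeR). Of 15 genes for receptor signaling, 1 rose after fracture, Arrb1, which encodes beta-arrestin 1, at 0.13 ± 0.03 (adjusted p = 0.0484, edgeR). In fracture plus PDX against sham mice 2 of 15 rose, Arrb1 at 0.17 ± 0.03 (adjusted p = 0.00993, edgeR) and Prkacb, a catalytic subunit of protein kinase A, at 0.11 ± 0.03 (adjusted p = 0.0455, edgeR). The 6 peptide-degrading enzymes gave 0 calls.

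Some genes that all neurons express rose as well. After fracture 3 of 10 neuron genes rose (Tubb3 by 0.17, Stmn2 by 0.18 and Uchl1 by 0.14 on the log2 scale), with a median log2 fold change of 0.13 over the list. In fracture plus PDX against sham mice 6 of 10 rose, among them Syn1, Tubb3 and Elavl3 (by 0.18, 0.21 and 0.20), with a median of 0.17. Of 8 nociceptor genes, 1 rose after fracture, Scn9a, a sodium channel, at 0.16 ± 0.04 (adjusted p = 0.0451, edgeR), and of 6 large neuron genes Nefh and Nefm, both neurofilaments, rose. With PDX against sham 0 of 8 nociceptor and 0 of 6 large neuron genes were called. Of 7 macrophage genes, Csf1r and Adgre1 fell after fracture (log2 fold changes -0.47 and -0.56, adjusted p = 0.00733 and 0.0139, edgeR). Of all genes tested, 1.83% fell in that comparison and 2.32% in fracture plus PDX against sham mice. Of 5 fibroblast genes, Dcn fell, and of 7 placenta genes Prl3d1 and Prl2c2 fell. With PDX against sham 5 of 7 placenta genes fell, among them Prl3b1, Tpbpa and Tpbpb (log2 fold changes -2.23, -2.15 and -2.37), and 1 of 3 satellite glial genes rose, the potassium channel Kcnj10 (0.27 ± 0.07, adjusted p = 0.0493, edgeR). Of the macrophage genes 1 of 7 fell in that comparison, Csf1r (-0.34, adjusted p = 0.00431, edgeR). None of the tested genes was called after fracture for relatives of the peptides (0 of 4), nonpeptidergic neurons (0 of 5), satellite glia (0 of 3), Schwann cells (0 of 6), mural cells (0 of 5), red blood cells (0 of 5), skeletal muscle (0 of 8, median log2 fold change 2.07) or the central nervous system (0 of 1). Positive log2 fold changes after fracture were found for 0 of 6 Schwann cell, 0 of 7 macrophage, 0 of 5 fibroblast and 0 of 5 red blood cell genes. Their medians were -0.22, -0.34, -0.23 and -0.53. The positive counts were 2 of 7 for endothelial, 2 of 5 for mural, 2 of 3 for satellite glial and 8 of 8 for muscle genes. With PDX against fracture 0 of 8 muscle genes were positive (median -1.91), and 0 were called. The part of these shifts in makeup in the values of the 9 transcripts was not tested.

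Within groups, the transcripts varied together only in part. After removal of the group and sex means, log2 CPM of Calca and Tac1 correlated with r = 0.58 over 18 libraries, Tac1 and Adcyap1 with r = 0.52 and Sst and Nppb with r = 0.41. Calcrl ran opposite to Tac1 (r = -0.74) and Calca (r = -0.66). These correlations share the library and its scaling and are given as a description. The gene most like Calca of 12378 compared, those at a mean of 5 CPM or more, was Vstm2l (r = 0.94), followed by Olfm1 and Islr2 (both r = 0.90). For Calcb, Nmb, the precursor of neuromedin B, was among the 3 most alike (r = 0.88), and for Adcyap1, Pcsk1, a prohormone convertase, was among them (r = 0.82) behind Hnrnpdl (r = 0.86) and Eef1akmt2 (r = 0.85).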

How the data were processed

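Poly(A)-selected, stranded RNA libraries were made from L3–L5 DRG of 18 mice. The authors deposited raw counts per gene and FPKM values for 36737 genes. The submitters' processing notes name cutadapt 1.10, FastQC, HISAT2, StringTie and the mm10 build, with no roles, and the counting program is not given in the sources used here. The headers call the sham group Con. Groups, sex and number were taken from the sample titles.

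Counts were tested in R 4.3.3 with edgeR 4.0.16 (filterByExpr with minimum count 10 and total 15, TMM, robust quasi-likelihood fits, Benjamini-Hochberg adjustment over all genes tested) on the 12 libraries of each comparison, with sex as covariate. Sex and its interactions were tested likewise. SEs are of the log2 fold change and 95% intervals use the t distribution with the degrees of freedom of the quasi-likelihood test, unadjusted. CPM use TMM, and log2 CPM use a prior count of 2. Single values were tested by exact two-sided permutation. Alternatives used DESeq2 1.42.0, limma 3.58.1 on log2(FPKM + 1) and log2(FPKM + 0.1), other filters and scalings, and omission of each library. Scripts were tested on simulated data. Counts vary between mice beyond counting error, so replicates set the precision at 63235040 to 82824942 counts per library.

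The 9 genes and the 21 gene lists were chosen with earlier results of these data known. All 9 genes are described. From each list, genes called at an adjusted p under 0.05 were named, at most 3 per direction, otherwise at most the 2 with the highest CPM, and others are marked as chosen after values were seen or stand for a stated role. For each member the 3 genes most alike in log2 CPM were ranked.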

Additional observations from a re-analysis of the deposited data

Results flagged for a closer look

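Tacr1 in sham female 2 read 0.633 CPM, apart from the other 5 sham mice, by a gap of 0.702 of the range of the group. Across 27 combinations of member and group, 1 value stood apart in this way, where chance gives about 1 in 20. This library also had the highest summed CPM of placenta genes (561) and the highest Sst (6.63 CPM) of all 18. Without it the log2 fold change of Tacr1 was 0.418 after fracture and -0.22 with PDX against sham. Tacr1 rests on 4 to 51 counts per library.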

How the results depend on the processing

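The rise of Adcyap1 kept its direction under all alternatives run. Calls across all genes varied more. For fracture against sham, 603 genes were called, 1477 by DESeq2, 388 by limma on log2(FPKM + 0.1) and 213 to 710 with 1 library left out. The lower counts came without sham male 2 (253), male 3 (245), female 1 (372) or female 2 (291) and without fracture male 1 (378), male 2 (380), male 3 (287) or female 2 (213). For fracture plus PDX against sham, 925 were called, 1581 by DESeq2 and 498 to 1008 with 1 library left out, the lower ones without sham male 2 (539), male 3 (536) or female 2 (526) and without fracture plus PDX male 3 (560) or female 1 (498). For fracture plus PDX against fracture, 0 were called, 21 by DESeq2 and 0 to 1 with 1 library left out. For female against male, 62 were called and 324 by DESeq2. For the interactions of sex with fracture and with PDX, 0 and 1 were called, and 62 and 10 by DESeq2. Mice share replicate numbers within sex, and 5 of 18 same-numbered pairs had deviations that correlated above 0.1, with 8 of 18 correlating best with their own number. Of those 5, 3 were the male pairs of fracture and fracture plus PDX (r = 0.231 to 0.346, each best with its own number), while the female pairs of these groups lay at -0.163 to -0.00603. In no comparison did every pair pass 0.1, so the numbers were not taken to pair the mice. With the replicate block, 118 and 486 genes were called for fracture and fracture plus PDX against sham and 0 for PDX against fracture, and the adjusted p of Adcyap1 was 0.133 and 0.0752 (edgeR). With 1 library left out, the log2 fold change changed sign for 6 transcripts that were not called: against sham, after fracture for Tac1 (-0.117 to 0.0468) and Tacr1 (-0.107 to 0.418) and with PDX for Calcb (-0.0733 to 0.0228), and for PDX against fracture for Sst (-0.14 to 0.0216), Nppb (-0.148 to 0.0168) and Calcrl (-0.0657 to 0.0248). Relative to the neuron genes, the Tacr1 difference after fracture was -0.0177. The causes of these changes were not tested.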
